A study of Mus musculus with 2 samples.

Results

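The genes described here are 10 cell adhesion genes of developing neurons: the immunoglobulin adhesion genes Ncam1, Ncam2, L1cam, Chl1, Nfasc, Nrcam, Cntn1 and Cntn2, the leucine-rich repeat gene Lrrn1, and Ctnna2, the gene of alpha-N-catenin. Members were taken as the gene probes whose gene name in both scanner files is one of the 10 symbols. That rule found 27 probes of 9 genes among 41043 gene probes usable on both arrays. Nrcam had no probe under its own symbol, but 3 probes carry its older name C130076O07Rik, and their values are given apart. The genes were picked from the same day 6 and day 0 intensities that are reported here, so every value below is a description and none is a test of the list.

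The study compared 2 RNA samples of R1, a line of mouse embryonic stem (ES) cells, on one-colour Agilent arrays. The day 6 sample came from embryoid bodies, which are floating cell aggregates, on day 6 of direct neural differentiation, and its label also calls the cells neural precursors. The day 0 sample came from undifferentiated ES cells, kept in 15% fetal bovine serum and 1000 U/ml leukaemia inhibitory factor on fibroblast feeders that no longer divide. The serum and factor used up to day 6, and any removal of feeders before extraction, are not stated. Each group had 1 array, so no replicate check, standard error or p-value between the days was possible, and medium, feeders and aggregation cannot be told apart from differentiation. Within a mixed RNA sample, fewer cells of a type and less RNA per cell cannot be told apart either.

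Immunoglobulin adhesion molecules hold growing axons, growth cones and glia together through repeated extracellular immunoglobulin and fibronectin domains. NCAM binds its like on the opposite cell, members of the L1 family bind ankyrins inside the axon, and contactins are tied to the membrane by a lipid anchor. Alpha-catenins work one layer further in, where they connect cadherins and beta-catenin to actin, and alpha-N-catenin is the form of neurons.

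The probes that carry the largest differences and the largest disagreements are shown first, with positions in the mm7 mouse build that the scanner files use. Each probe has 60 bases and is printed 5′ to 3′ as the files give it. Probes that may lie outside the coding sequence are shown by their first 30 bases. For Ncam1, the probe that was lower on day 6 (chr9:49492741-49492800, minus strand) is set beside A_52_P37077 (chr9:49525769-49525828) and A_51_P380309 (chr9:49477456-49477515), which were higher, and A_51_P347103 (chr9:49482551-49482610), which was within 2-fold. Capitals in the first mark the first stop triplet in the frame that starts at its first base, which begins at base 52. The Ctnna2 probe (chr6:76899663-76899721, minus strand) and the Lrrn1 probe (chr6:107663927-107663986, plus strand) are those of the genes with the widest differences when each gene is represented by 1 probe.
Ncam1 A_52_P382754: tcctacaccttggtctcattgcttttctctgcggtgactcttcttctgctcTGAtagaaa
Ncam1 A_52_P37077: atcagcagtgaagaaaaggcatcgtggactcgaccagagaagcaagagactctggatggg
Ncam1 A_51_P347103: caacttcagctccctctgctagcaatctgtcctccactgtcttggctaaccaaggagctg
Ncam1 A_51_P380309: actttttactgagtgaaacatcaacaccac
Ctnna2 A_51_P438841: tctaaacttgaactctgactttgctagaca
Lrrn1 A_51_P412966: cttgctactttgttgaatgatgttagttga

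The L1cam probe (chrX:69241688-69241747, minus strand) and the Nfasc probe that was higher on day 6 (chr1:132471355-132471414, minus strand) are shown because they come from related genes. Capitals mark the 32 equal bases in an ungapped overlap of 49. Across 389 pairs of probes from different members, the longest shared run of letters was 9 bases.
L1cam A_51_P139410: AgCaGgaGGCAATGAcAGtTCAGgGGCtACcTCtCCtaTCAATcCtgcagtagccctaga
Nfasc A_52_P331824: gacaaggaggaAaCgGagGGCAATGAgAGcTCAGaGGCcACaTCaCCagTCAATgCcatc

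Most of these genes were much brighter on day 6. Of the 9 genes with probes by the rule, 8 were measured, meaning that the scanner software marked a probe of theirs as well above background on 1 array or both. Each gene was represented by the probe whose log2 intensity, averaged over both days, was highest. In the counts below, higher and lower mean by 2-fold or more on day 6 relative to day 0. By that probe 7 of the 8 were higher and 0 lower, and among all 14967 measured genes 17.8% were higher and 20.1% lower. All 7 were also 4-fold or more higher, where the shares of all genes were 7.35% higher and 8.35% lower. The median log2 difference of the 8 genes, day 6 minus day 0, was 3.27, and that of all measured genes was -0.10. Since the list was drawn up from this contrast, nothing about the list is read from these shares. With Nrcam, 8 of 9 genes were higher.

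Counted by probe, the picture was less uniform. Of the 27 probes, 12 were well above background on both arrays, 8 on day 6 only, 0 on day 0 only and 7 on neither. Of the 20 measured probes, 15 were higher and 1 lower, and among all 28378 measured probes 17.5% were higher and 18.1% lower. Of those 15, 6 were counted by a bound because day 0 was not well above background. For such a probe the fold is written "at least" and sets day 6 against the lowest day 0 signal well above background. That bound holds under the reported background subtraction only, and without subtraction 12 probes were higher. Of the 12 probes that passed on both arrays, 9 were higher, and the share of all probes under that filter is not given here. At 4-fold, with the filter on either array, 9 of the 20 were higher and 0 lower. The shares of the 28378 probes at 4-fold were 6.53% higher and 6.64% lower.

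**Figure D1:**
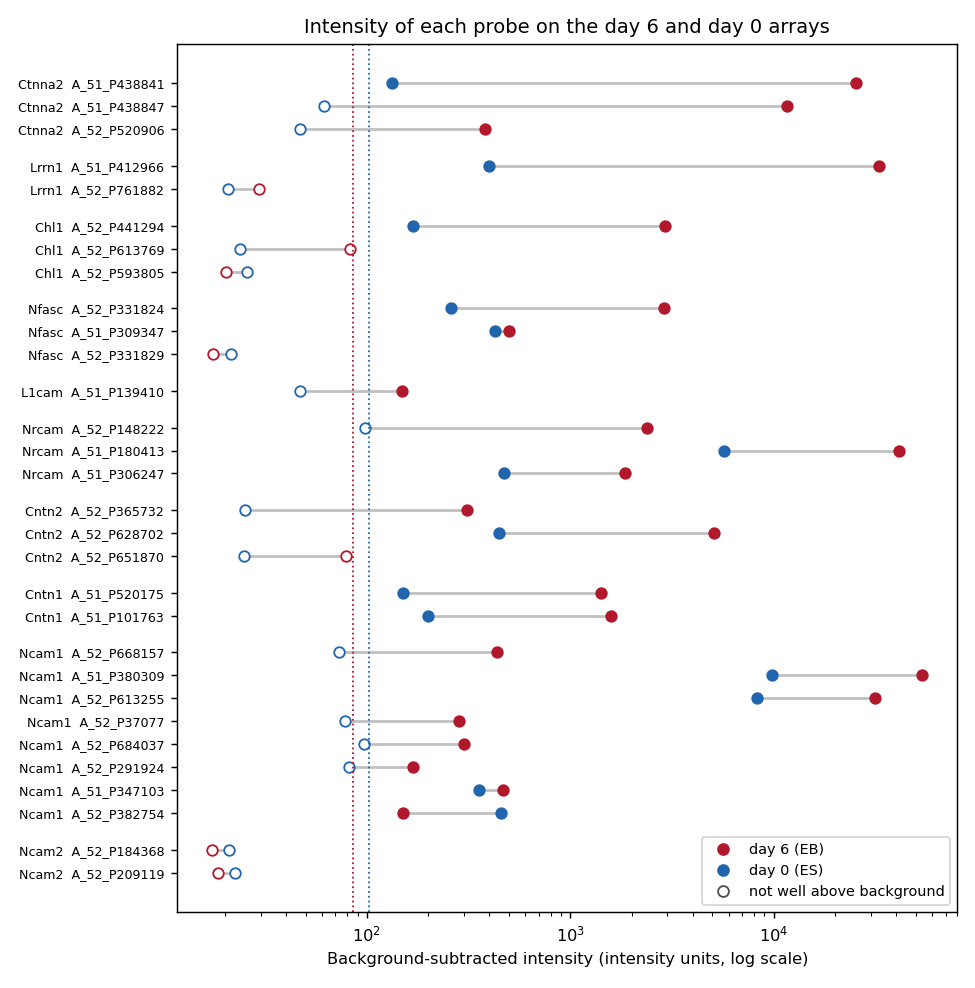
Intensity of all 27 probes and the 3 Nrcam probes on the day 6 (red) and day 0 (blue) arrays, on a log axis; open circles were not well above background and dotted lines are the lowest intensity well above background on each array. Ctnna2, Lrrn1 and Chl1 each have a probe with a wide gap, Ncam1 A_52_P382754 runs the other way, and both Ncam2 probes are open on both days.

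Ctnna2 had the widest difference. Its probe A_51_P438841 read 25488 intensity units on day 6 and 133 on day 0. That day 0 value was near the lowest day 0 signal well above background, which was 102. Intensities in the text are printed before scaling. Differences and folds were taken after each array was scaled to its 75th percentile. The log2 difference was 7.36 ± 0.32, or 164-fold, where ± here and below is the SD from the software's error model and not from replicates. Among 12968 genes well above background on both arrays, that rise ranked 4. The second probe, A_51_P438847, starts 0.323 kb upstream of it and had 11574 on day 6 and 61.2 on day 0. Day 0 was not well above background there, so the second probe was at least 96.9-fold higher on day 6.

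The remaining Ctnna2 probe, A_52_P520906, reads a clone that the file describes as a hypothetical vinculin and alpha-catenin protein. It lies 718 kb upstream of the first and had 383 on day 6 and 46.9 on day 0, at least 3.20-fold higher. All 3 probes were thus higher on day 6, with a smaller bound at the far probe.

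The other alpha-catenins did not share this rise. Ctnna1, the alpha-catenin of epithelial and most other cells, had 91991 on day 6 and 166001 on day 0 (log2 difference -1.07 ± 0.20). Its second probe gave -0.99, just short of 2-fold. Ctnna3, the alpha-catenin known from heart and testis, was not well above background on either array by its 2 probes.

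Lrrn1 encodes a membrane protein with leucine-rich repeats, an immunoglobulin domain and a fibronectin domain. Its probe A_51_P412966 had 32917 on day 6 and 400 on day 0 (log2 difference 6.14 ± 0.22, 70.6-fold), rank 10 of the 12968. The other Lrrn1 probe, A_52_P761882, reads a clone annotated as unclassifiable, starts 1.07 kb further along and had 29.5 on day 6 and 20.8 on day 0. Neither value was well above background, so that probe did not repeat the rise, which rests on A_51_P412966 alone. Whether both probes read the same transcript was not tested.

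The paralogue Lrrn3 was dim on day 0 and bright on day 6 by both of its probes. The brighter one had 9225 on day 6 and 24.2 on day 0, at least 77.3-fold higher. Lrrn2 had 1027 on day 6 and 420 on day 0 (log2 difference 1.07 ± 0.22), and Lrrn4 had 548 on day 6 and 5034 on day 0 (-3.42 ± 0.21). The Lrrn genes therefore differed in both directions.

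The L1 family of ankyrin-binding molecules was higher on day 6 by the brightest probe of each gene that could be measured on both arrays. Chl1, the close homologue of L1 known from growing cortical axons, had 2907 on day 6 and 169 on day 0 by A_52_P441294 (log2 difference 3.88 ± 0.27, 14.7-fold). Its probe A_52_P613769 had 82.9 on day 6 and 23.8 on day 0, and A_52_P593805 had 20.3 on day 6 and 25.7 on day 0. Neither of these last probes was well above background on either array.

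Nfasc encodes neurofascin, which gathers sodium channels at the axon initial segment and at nodes of Ranvier. Its probes disagreed. Probe A_52_P331824 had 2875 on day 6 and 260 on day 0 (log2 difference 3.25 ± 0.24, 9.49-fold). Probe A_51_P309347, 35.1 kb upstream, had 500 on day 6 and 426 on day 0 (log2 difference 0.005 ± 0.22). Its 60 bases are listed over an interval of 2812 bases, so they are not contiguous in the genome. The remaining probe, A_52_P331829, lies between them and had 17.4 on day 6 and 21.4 on day 0, not well above background on either array.

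The Nfasc probes well above background on both arrays were thus 3.24 log2 units apart. Over 5510 genes with at least 2 such probes, the median distance was 0.365, and 4.59% were more than 2 log2 units apart. The printed Nfasc sequence is the one that was higher. Whether the probes read different neurofascin isoforms was not tested.

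L1cam itself, a guidance and adhesion molecule of long axon tracts, was near background. Its single probe had 149 on day 6 and 47.1 on day 0, well above background on day 6 only. The bound was 1.25-fold, so L1cam was the measured gene by the rule that was not counted as 2-fold higher. The measured difference was 1.44 ± 0.73, and it was 0.51 with no background subtraction.

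Nrcam, a partner of contactins and ankyrins at axonal membranes, was higher on day 6 by all 3 of its probes under the older name. A_51_P180413 had 41202 on day 6 and 5674 on day 0 (log2 difference 2.64 ± 0.20, 6.22-fold). A_51_P306247 had 1863 on day 6 and 472 on day 0 (1.76 ± 0.21). A_52_P148222 had 2377 on day 6 and 98.3 on day 0, at least 19.9-fold higher.

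Both contactins of the list were higher on day 6. Cntn1, a lipid-anchored receptor of axons, gave near values by its 2 probes, which start 1.41 kb apart. A_51_P101763 had 1579 on day 6 and 200 on day 0 (log2 difference 2.76 ± 0.26), and A_51_P520175 had 1414 on day 6 and 150 on day 0 (3.01 ± 0.32). Their distance of 0.25 log2 units is within the software error of either.

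Cntn2, known as TAG-1 of early commissural and motor axons, had 5087 on day 6 and 444 on day 0 by A_52_P628702 (log2 difference 3.30 ± 0.22, 9.82-fold). A_52_P365732 had 310 on day 6 and 25.2 on day 0, at least 2.60-fold higher. The remaining probe, A_52_P651870, had 79.1 on day 6 and 24.8 on day 0, not well above background on either. The contactin genes outside the list were dim: Cntn3, Cntn4 and Cntn5 did not stand well above background on either array, and Cntn6 had 106 on day 6 and 20.9 on day 0, too close to background for a fold.

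Ncam1 was read by 8 probes, and they ran in opposite directions. Its protein occurs as NCAM-140 and NCAM-180, which cross the membrane, and as NCAM-120, which ends at a separate exon with its own stop codon and is held by a lipid anchor. The files describe 3 probes as the 3′ end of NCAM-140 and NCAM-180. The 3′-most, A_51_P380309, had 53602 on day 6 and 9758 on day 0 (log2 difference 2.23 ± 0.20, 4.71-fold). A_52_P613255, 2.90 kb upstream, had 31315 on day 6 and 8246 on day 0 (1.70 ± 0.20). A_51_P347103, 5.095 kb upstream, had 469 on day 6 and 357 on day 0 (log2 difference 0.17 ± 0.23), which is within the software error.

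The probe A_52_P382754, 15.3 kb upstream of the 3′-most one, was lower on day 6. It had 150 on day 6 and 455 on day 0 (log2 difference -1.82 ± 0.27, 3.54-fold lower). It is assigned to the accession NM_010875, and the files name no isoform for it. The stop triplet marked in its printed sequence is read in the frame that starts at its first base. Whether its transcript uses that frame, and which isoform it belongs to, was not tested. Under 5 other ways of processing, its difference ran between -1.94 and -1.29, so it was lower by 2-fold or more in each.

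The 4 remaining Ncam1 probes lie further 5′ and passed the background mark on day 6 but not on day 0. A_52_P668157, 139.7 kb upstream, had 437 on day 6 and 72.9 on day 0, at least 3.66-fold higher. A_52_P684037, listed over 584 bases at 64.6 kb, had 300 on day 6 and 96.3 on day 0, at least 2.51-fold higher. A_52_P37077 is described in the file as part of exon 7, exon pi and part of exon 8, where exon pi is the short alternative exon of the fourth immunoglobulin domain. It had 282 on day 6 and 78.2 on day 0, at least 2.36-fold higher.

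A_52_P291924, at 44.0 kb, was printed 10 times and so shows the spread between spots. On day 6 its 9 usable spots ran from 153 to 179 with a median of 170. On day 0 its 10 spots ran from 64.9 to 102 with a median of 79.8, and 0 of them were well above background. The spots of the days did not overlap, but the bound was 1.41-fold, so this probe was not counted as 2-fold higher. The SD between its spots was 0.066 log2 units on day 6 and 0.19 on day 0.

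Of the 8 Ncam1 probes, 5 were therefore higher, 1 lower and the other two under 2-fold. Without background subtraction, A_52_P37077 and A_52_P684037 had log2 differences of 0.82 and 0.77, which are under 2-fold. The 4 probes well above background on both arrays spanned 4.06 log2 units. Among the 5510 genes with several such probes, 40 (0.726%) had one probe higher and another lower. The files also hold a pair of probes for testis clones described as NCAM products, mapped to the opposite strand of the same region. Neither was well above background on either array.

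**Figure D2:**
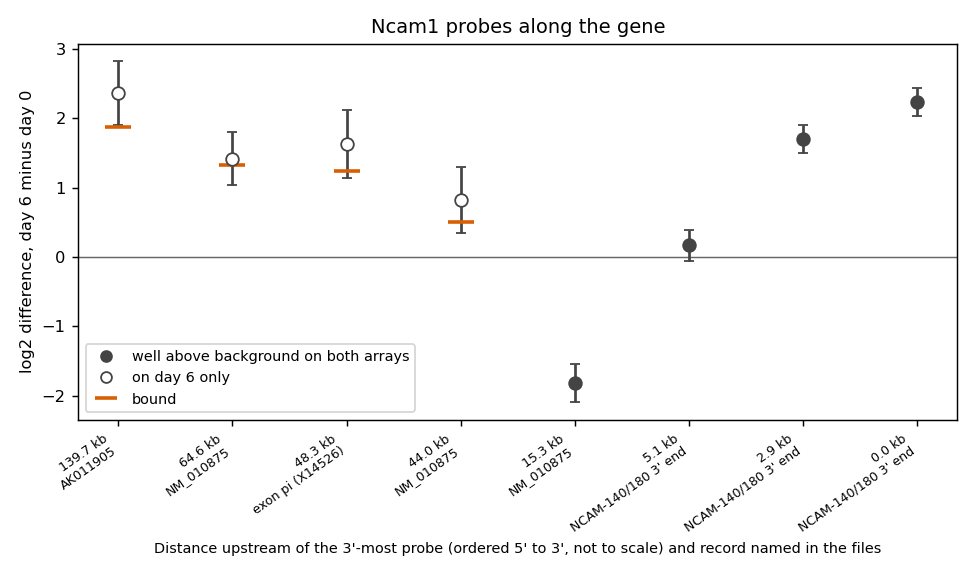
Log2 difference, day 6 minus day 0, of the 8 Ncam1 probes ordered 5′ to 3′, with the distance from the 3′-most probe; bars are the software error SD, open circles passed the background mark on day 6 alone and orange marks are their bounds. The probe at 15.3 kb is at -1.82 and the 3′-most probe at 2.23.

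Ncam2, the second NCAM gene, known from olfactory axons, was not seen. Its 2 probes had 18.5 and 17.4 on day 6, and 22.6 and 21.0 on day 0, none well above background. Another probe, outside the rule and described as the long form of RNCAM, had 17.2 on day 6 and 20.6 on day 0. No direction can be read from these values.

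Some members lie on the same chromosome. By the probe positions of the files, the stretch of chromosome 6 from Chl1 to Lrrn1 spans 3.93 Mb and holds probes of 7 named genes. Of the 5 measured, 2 were higher and 0 lower, where the shares of all genes were 17.8% and 20.1%. These 2 were Chl1 and Lrrn1, the members that bound the stretch, so the count follows from the choice of members. Between Chl1 and Lrrn1, Crbn and Trnt1 had log2 differences of 0.89 and -0.71. Cntn6 was well above background on day 6 only, and Cntn4 and Il5ra were not on either array. On chromosome 1, Cntn2 and Nfasc lie within 0.0987 Mb with no other named gene between their probes.

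RefSeq promoter sequences (GRCm38.p6, 250 bases before to 50 after the start) were found for 9 of the 10 genes, 13 starts in all. None was found for Ncam1. Cntn1, L1cam and Nfasc had more than 1 start, and the L1cam promoters overlap, so the starts are not independent. Their median number of CpG pairs was 13 and their median GC content 61.3%, against 7 and 52.7% over 32851 promoters. Of 6 motifs searched on both strands, the GC box GGGCGG was in 7 of 13 (35.7% of all promoters), the CCAAT box CCAAT in 5 (37.4%), the E-box CAGCTG in 2 (16.3%) and TATAAA in 1 (13.6%). The octamer ATGCAAAT (1.74%) and TTCAGCACC (0.371%), the left part of the RE1 element bound by the neuronal repressor REST, were in 0. A match is a description of letters. The 250 bases before the starts of the genes with the widest differences are shown with motif letters in capitals, Ctnna2 at chr6:77979668-77979917 on the minus strand and Lrrn1 at chr6:107529476-107529725 on the plus strand.
Ctnna2: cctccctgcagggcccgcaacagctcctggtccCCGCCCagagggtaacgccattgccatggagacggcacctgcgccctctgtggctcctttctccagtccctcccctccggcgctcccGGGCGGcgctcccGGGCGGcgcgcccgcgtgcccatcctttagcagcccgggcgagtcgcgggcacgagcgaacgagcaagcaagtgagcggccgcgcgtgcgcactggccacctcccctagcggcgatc
Lrrn1: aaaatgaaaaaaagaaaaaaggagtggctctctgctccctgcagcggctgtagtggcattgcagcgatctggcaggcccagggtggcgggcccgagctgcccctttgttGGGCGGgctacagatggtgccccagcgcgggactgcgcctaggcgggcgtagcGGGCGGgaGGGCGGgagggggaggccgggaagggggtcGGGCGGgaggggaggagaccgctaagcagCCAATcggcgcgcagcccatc

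Genes that act with these molecules were taken from lists of related families and partners. Beside the list counts here and below, 17.8% of all measured genes were higher and 20.1% lower. Among partners and modifiers of the neural adhesion molecules, 17 of 27 measured genes were higher and 3 lower, and the median log2 difference was 1.86. St8sia4, one of the enzymes that add polysialic acid to NCAM, had 8963 on day 6 and 1423 on day 0 (log2 difference 2.43 ± 0.20). St8sia2, the other, had 290 on day 6 and 27.4 on day 0, at least 2.42-fold higher.

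The ankyrin genes Ank3 and Ank2, whose proteins hold the L1 family at the axon, had log2 differences of 2.59 ± 0.20 and 2.11 ± 0.21. Cntnap2, a partner of Cntn2, had 4842 on day 6 and 543 on day 0 (2.93 ± 0.21), while Cntnap1, a partner of Cntn1, had 333 on day 6 and 367 on day 0 (-0.36 ± 0.24). Ptprz1, a phosphatase that binds contactin, was saturated on both arrays by its brightest probe, which stands for it in the list at -0.225. Another Ptprz1 probe gave 2.79, and A_51_P370996 (2840 on day 6 and 98.9 on day 0) had a bound of 4.57 log2 units. The remaining Ptprz1 probe was not well above background on either array. Fgfr1, a receptor that NCAM and L1 can engage, had a difference of 0.56 ± 0.22.

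In the same list the widest rises were those of Dcx (at least 93.5-fold), the doublecortin gene of migrating neurons, Epha3 (at least 24.8-fold), an ephrin receptor, and Plxna4 (10.4-fold), a semaphorin receptor. The lower genes were Tnc, the gene of the matrix protein tenascin-C (28.6 on day 6 and 7653 on day 0, at least 105-fold lower), Ezr (3.08-fold lower), which links membrane proteins to actin, and Sptbn4 (2.65-fold lower), a spectrin of the axon initial segment.

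The other neural immunoglobulin adhesion genes were mixed. Of 22 measured, 8 were higher and 3 lower, and the median was 0.70. Only 5 were counted higher among genes that passed on both arrays, where the median was 0.24, and with dim probes at their bound it was 0.32. Sdk2, a synaptic adhesion gene of the retina, was at least 69.4-fold higher by its brightest probe (8289 on day 6 and 99.7 on day 0). Another Sdk2 probe, well above background on both arrays, gave 0.34. The remaining Sdk2 probes, well above background on day 6 only, had bounds of 2.57 and 0.50 log2 units. Negr1 was at least 13.7-fold higher and Dscam 5.60-fold higher. Thy1, also a fibroblast gene, was 29.7-fold lower, Kirrel2 22.0-fold lower and Mcam 2.28-fold lower.

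Adhesion genes of epithelium and vessels leaned the other way. Most are of the immunoglobulin family, but the list also holds genes outside it, such as Epcam and Afdn. Of 19 measured, 2 were higher and 8 lower, and the median was -0.98. With median scaling 1 was higher and 10 lower. The median was -1.74 by the mean of the probes and -0.56 without background subtraction. Jam3, a junction molecule, was 5.26-fold higher and Cxadr, the coxsackievirus and adenovirus receptor, 2.08-fold higher. Icam1, a leukocyte ligand, was 48.7-fold lower, Bcam 12.6-fold lower and the epithelial adhesion gene Epcam 11.6-fold lower.

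In the cadherin-catenin complex, 6 of 16 measured genes were higher and 7 lower. The list median was -0.23, and with quantile normalization its sign turned (0.09). It was 0.29 with no filter and -0.78 when both arrays had to pass. N-cadherin (Cdh2), which alpha-N-catenin serves in neurons, had 18202 on day 6 and 2646 on day 0 (log2 difference 2.56 ± 0.20). Cdh8 was at least 5.53-fold higher and Cdh6 at least 5.10-fold. E-cadherin (Cdh1) had 9319 on day 6 and 107089 on day 0 (-3.75 ± 0.20), plakoglobin (Jup) was at least 12.9-fold lower and P-cadherin (Cdh3) 11.9-fold lower.

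Leucine-rich repeat membrane proteins of neurons, the wider family of Lrrn1, were higher in 16 of 30 measured genes and lower in 6, and the median was 1.49. After Lrrn3, the widest rises were Slitrk6 (at least 9.63-fold) and Lingo4 (at least 7.96-fold). Lrrn4 was 10.7-fold lower, Lrrtm1 at least 5.65-fold lower and Lrrn4cl 5.37-fold lower. When probes had to be well above background on both arrays, 8 were higher and the median was 0.87.

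**Figure D3:**
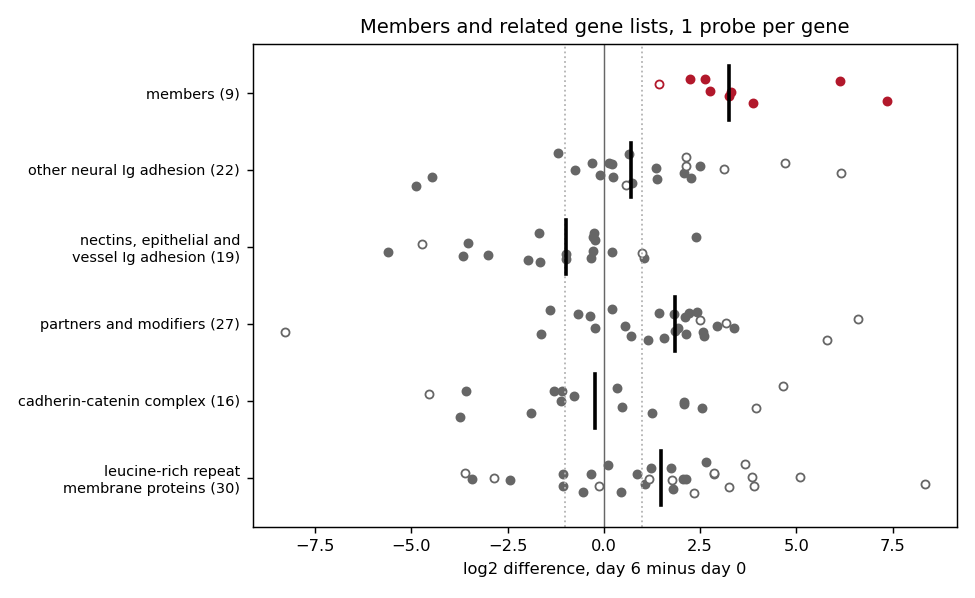
Log2 difference, day 6 minus day 0, of each measured gene, 1 probe a gene, for the members with Nrcam and 5 lists of related genes; open circles were well above background on 1 array only, black bars are medians and dotted lines mark 2-fold. All 9 member points lie to the right of 0, while each of the other lists has points on both sides.

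Markers of the cell types in the cultures moved as well, and their part in the differences above was not tested. Among all measured genes, 17.8% were higher and 20.1% lower. Neuron markers were higher in 7 of 10 and lower in 0, with summed intensities of 385013 on day 6 and 112597 on day 0. Such sums follow the brightest probes. On day 6 these were Nefl (116327 on day 6 and 72553 on day 0) and Elavl4 (108798 on day 6 and 1573 on day 0). Neural progenitor markers were higher in 4 of 8 and lower in 0. Markers of glia and myelinating cells, where Nfasc and Cntn2 are also used, were higher in 6 of 9, with summed intensities of 12215 on day 6 and 3751 on day 0 and with Gfap not well above background on either.

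Fibroblast markers, included because day 0 cells grew on feeders, were lower in 5 of 10 and higher in 1, with summed intensities of 27313 on day 6 and 126413 on day 0. Muscle markers, included because muscle also makes NCAM, were lower in 4 of 6 and higher in 0, with sums of 4129 on day 6 and 17319 on day 0. The muscle factors Myod1, Myog and Myf5 did not stand well above background on either array. The part of either marker list in the fall of the Ncam1 probe A_52_P382754 was not tested. The 7 ES cell markers measured were all 4-fold or more lower, Pou5f1 (Oct4) with 302 on day 6 and 41679 on day 0.

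Leaving out background subtraction made most member differences smaller, while Ncam1 and Nrcam moved more with the scaling. Without background subtraction, Ctnna2 was at 6.51, Lrrn1 at 5.79, Chl1 at 3.18 and Nfasc at 2.77 log2 units. For the 7 genes well above background on both arrays and for Nrcam, the difference stayed above 2 log2 units under each of 5 alternatives in background correction and scaling, the lowest being 2.12 for Ncam1. The choice of probe mattered more for genes whose probes disagree. By the mean of its measured probes Ncam1 was at 1.06, and at 0.90 with dim probes at their bound, so it was no longer counted as 2-fold higher and 6 of the 8 genes were. Nfasc was at 1.62 by the mean of its probes and was still counted.

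**Figure D4:**
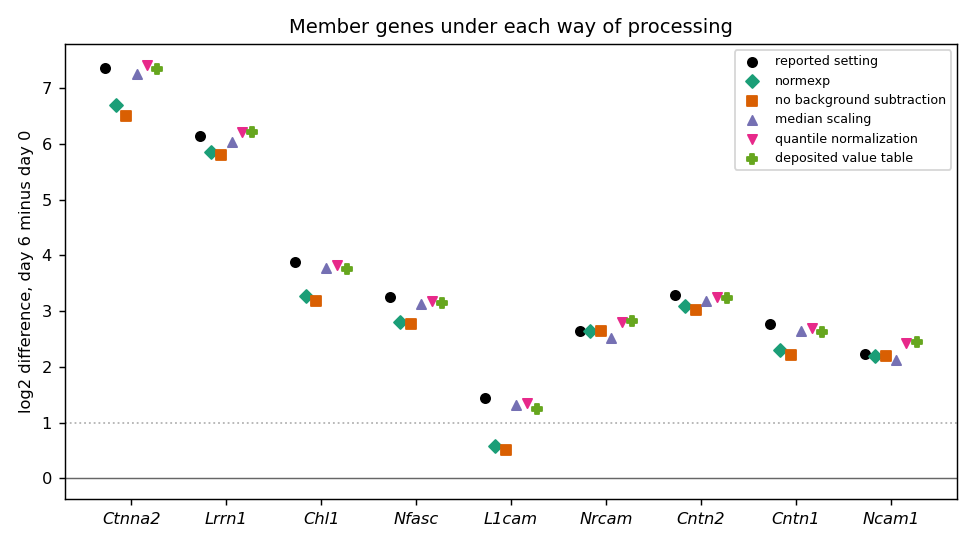
Log2 difference, day 6 minus day 0, of 9 member genes (Ncam2 was not measured) in the reported setting and under 5 other background corrections and scalings; the dotted line marks 2-fold. Genes other than L1cam stay above 2 log2 units in each setting, and L1cam falls to 0.57 with normexp and 0.51 with no background subtraction.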

How the data were processed

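Total RNA of 2 samples was labelled with Cy3 and read on 2 one-colour Agilent arrays, per the labels. The authors deposited the scanner files of Feature Extraction 9.5.3.1, which per the file headers give each spot's intensity after background subtraction and detrending, its software error, its intensity before subtraction and flags. The headers name array design 014868 and the mm7 build. The authors also deposited a log2 value table with equal distributions in both columns. The sources used here do not give its steps. Its base and direction were set by comparison with the scanner files (Pearson correlation of the differences 0.995 across probes well above background on both arrays), and it was an alternative.

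Control spots and outlier spots (216 on day 6 and 186 on day 0) were left out, log2 intensities of a probe's spots were averaged, and each array's 75th percentile (4388 on day 6 and 3758 on day 0) was subtracted. On day 6 65.5% of probes were well above background, with a lowest such intensity of 85.2, and on day 0 61.5%, with 102. The software error of a difference had a median of 0.21 log2 units, and among probes spotted 10 times the SD between spots had a median of 0.045 on day 6 and 0.053 on day 0. The number of arrays limits the precision. Genes were named by accession or symbol through a RefSeq table (GRCm38.p6). Both arrays were on 1 slide, and the place on the slide and the day cannot be told apart. Counts use 2-fold, with the bound for probes dim on 1 array.

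The members and lists were chosen with earlier results of these data known. In each list, the text names the 3 genes with the widest rise and the 3 with the widest fall past 2-fold, and close relatives of the members. Alternatives were normexp with an offset of 50 (limma 3.58.1), no subtraction, other scalings, filters and probe choices. The procedure was tested on simulated data. Python 3.11.15, numpy 2.4.6 and pandas 2.3.3 were used.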

Additional observations from a re-analysis of the deposited data

How the results depend on the processing

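No paired analysis was possible because each group has 1 array, and no replicate could be left out. The number of member genes at least 2-fold higher was 7 under each alternative tried except the mean of the probes (6, without Ncam1) and the addition of Nrcam (8), which was chosen after seeing the data. Member probes at least 2-fold higher numbered 15 as reported, 12 under normexp and 12 without background subtraction. They numbered 9 with the filter on both arrays and 9 at 4-fold, where 0 were lower. The member median was 2.95 under normexp and 2.90 without background subtraction. Of 45 member gene differences under alternatives, 14 moved by more than the software error and 0 changed sign. Of 100 member probe differences, 31 moved by more than the software error. Median scaling put the median of all genes at -0.21, quantile normalization at 0.0, and no filter at -0.28, against -0.10 as reported.

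Under normexp the partners median was 1.44, without background subtraction 1.35, by the mean of the probes 2.13 and at the bound 1.56. For leucine-rich repeat proteins it was 1.02, 0.99, 1.20 and 1.07 in the same order, and 0.87 when both arrays had to pass. For other neural immunoglobulin genes it was 0.24 with the filter on both arrays or with no filter, 1.05 with the mean of the probes or the probe highest on day 6, and 0.32 at the bound. For epithelial and vessel genes it was -0.58 under normexp, -0.56 without background subtraction and -1.74 by the mean of the probes. For the cadherin-catenin complex it was 0.09 under quantile normalization, 0.094 in the deposited value table, 0.29 with no filter and -0.78 when both arrays had to pass. The cause was not tested, except that filters and bounds use other members or values by construction. Signal over background limits L1cam, Ncam2 and the 8 probes seen on day 6 only.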
